A study of Mus musculus with 18 samples.

Results

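The comparison set colon taken on the evening side of the day against colon taken on the morning side. Arrays collected at 4pm and 8pm (6 arrays, evening) were compared with arrays collected at 4am and 8am (6 arrays, morning), chosen by the collection time in the array titles, out of 18 arrays in the series. The tissue was mouse distal colon cut about 0.5 cm above the anus, from mice that had spent 2 weeks on a cycle of equal light and dark phases (12 h each) and fed freely. Lights came on at clock hour 7 and went off at 19, so the evening arrays fell 9 and 13 h after lights on and the morning arrays 21 and 1 h after lights on. Each side therefore held 1 light and 1 dark time, and each evening time had its partner 12 h away on the morning side (4pm with 4am, 8pm with 8am). A rhythm of 12 h gives both times of such a pair the same level and so cancels in the comparison. Every time had 3 arrays, and all groups shared the light cycle and the feeding. The labels give no strain, age or sex, and leave unstated if each array was 1 mouse or a pool, so p-values measure only the spread between these arrays.

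The circadian clock of mammalian cells is a loop in which the activators ARNTL (BMAL1) and CLOCK, or its relative NPAS2, switch on the genes of their own repressors, the period and cryptochrome proteins. A linked loop runs through the REV-ERB receptors, which repress Arntl at ROR elements, and a set of factors of the PAR bZIP family, led by DBP, carries the rhythm to other genes through D-boxes. In the colon, clock transcripts cycle in epithelium and muscle, and motility, ion transport and cell renewal vary over the day.

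The 10 epithelial markers Car1, Car4, Slc26a3, Aqp8, Krt20, Cdx1, Cdx2, Lgals4, Vil1 and Muc2 were all above the expression filter, with median signals between 1484 and 20359 over the 12 arrays. The single lowest marker signal was 15, for Cdx1 in 1 of the 12 arrays. Signals are the deposited scaled intensities, and differences were taken on the scale of log2(signal + 16). The Gapdh ratio (signal of the 3′ control probe set over that of the 5′ one), which rises when RNA is degraded, lay between 0.746 and 1.12 in 14 arrays. It was 34.3 in 4pm b and 2.33 in 4pm c on the evening side, against 36.0 in 4am a and 18.2 in 4am b on the morning side. The 6 arrays of 8pm and 8am lay between 0.793 and 0.873, and the 8pm minus 8am difference, which uses none of these 4 arrays, is given for every called gene and for most others named. The p-values of that difference rest on a spread estimated over all 18 arrays, these 4 included. In bulk tissue, fewer cells of a type and less RNA per cell cannot be told apart.

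Clock transcripts and a few metabolic and transport genes made up most of the few genes called between evening and morning. Of 12870 genes tested, 10 rose in the evening (0.0777%) and 2 fell (0.0155%) at a limma adjusted p under 0.05 after Benjamini-Hochberg adjustment. The 10 were the clock and clock-output genes Dbp, Tef, Nr1d2, Per3, Ciart and Tspan4, the immediate early gene Csrnp1, the amino acid transporter Slc36a1, the detoxifying enzyme Ephx1 and the clone 0610005C13Rik. The 2 that fell were Arntl, the central activator of the loop, and Cldn8, a tight junction claudin. Of 46 gene lists with at least 3 tested members, 38 held no called gene. At an unadjusted p under 0.05, 1002 genes were higher (7.79%) and 417 lower (3.24%). The median difference over all genes was 0.08 on the log2 scale, with 7799 genes positive and 5071 negative. Centring every array on its median moved that value to -0.05 and left 3 genes higher (Dbp, Tef and 0610005C13Rik) and 2 lower (Arntl and Npas2), so that 60% of the calls were higher, against 83.3% of the calls on the deposited scale. The count of higher genes was 6 without 8pm a and 1495 without 4am c, and the count of lower genes was 657 without 4am c, a fit in which 4am a and 4am b, of Gapdh ratio 36.0 and 18.2, made up the whole 4am group. It was 4 without 8pm c or 4am a, and 1 without 4am b or without any 1 array of 8am, 4pm a, 4pm c, 8pm a or 8pm b.

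All 12 called genes had the same sign in both pairs of times, as did 7008 of the 12870 genes tested. The comparison averages the differences of both pairs, so genes called by it tend to agree in sign and to separate the sides. Neither property is therefore a further test of the calls. In 8 of the 10 higher genes every evening array lay above every morning array, and in both lower genes every evening array lay below, against 29 genes (0.225%) and 8 genes (0.0622%) of all those tested. In Per3 the arrays 8pm a and 8pm c lay under 4am c, and in Csrnp1 the 8am arrays reached into the evening range.

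**Figure D1:**
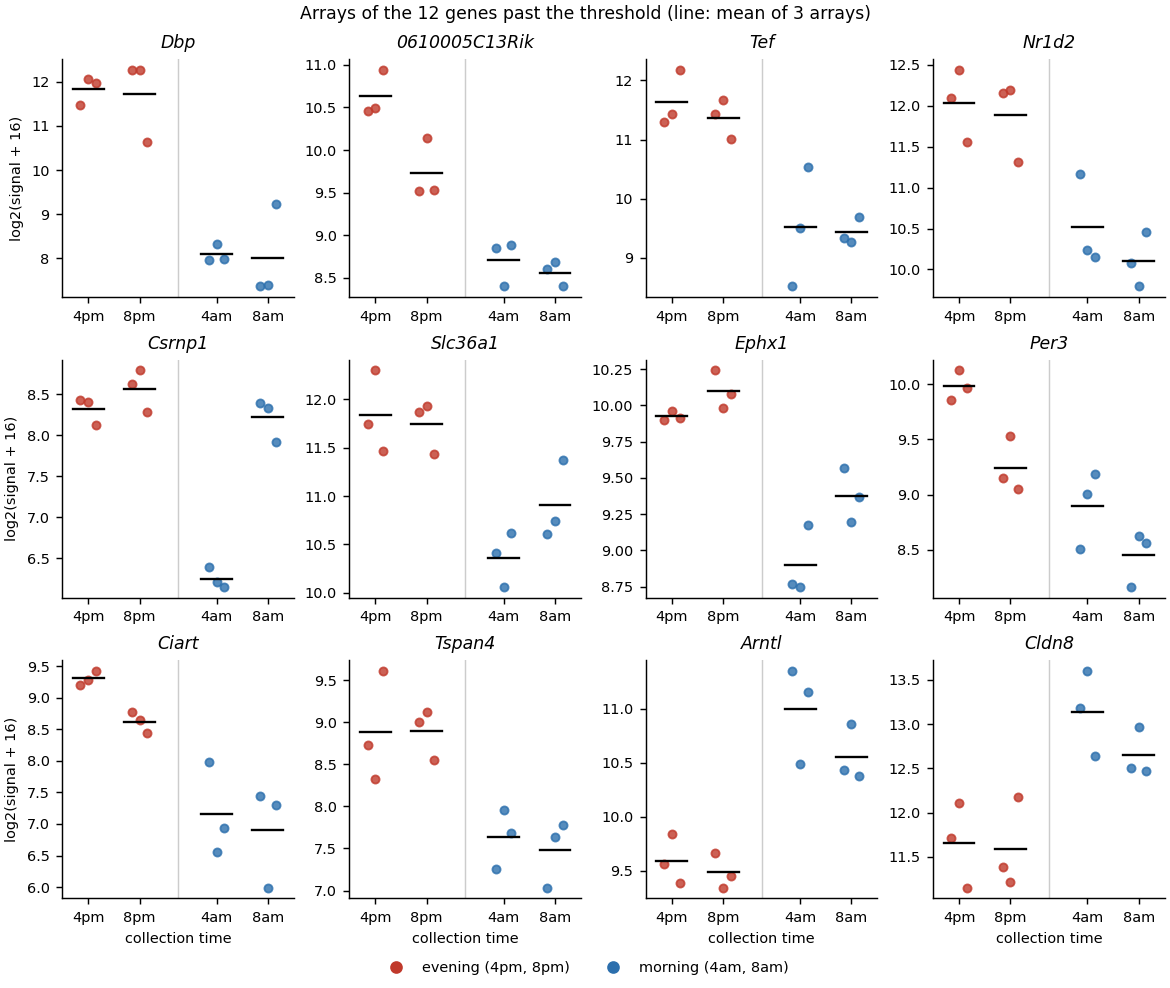
Each panel plots log2(signal + 16) of 1 called gene in the 12 arrays, evening (4pm, 8pm; red) left of morning (4am, 8am; blue), with a line at the mean of the 3 arrays of a time; the vertical scale differs between panels. Evening and morning values do not overlap in 10 of the 12 panels, and in Csrnp1 the 8am arrays sit at the evening level while the 4am arrays lie far below.

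Dbp, a transcription factor transcribed directly by the clock, differed most. Its signal was 2824, 4255 and 3970 at 4pm and 4890, 4907 and 1568 at 8pm, against 235, 307 and 239 at 4am and 149, 152 and 588 at 8am. The lowest evening array, 8pm c, stood well above the highest morning array, 8am c. Dbp was 13.2-fold higher in the evening, a log2 difference of 3.73 ± 0.33 (SE, 95% interval 3.02 to 4.43, limma adjusted p = 3.53e-05). The difference was 3.73 for 4pm minus 4am and 3.72 for 8pm minus 8am, and a second Dbp probe set gave 3.82 ± 0.35. Dbp was the single gene past the threshold for 8pm minus 8am alone (0.00777% of genes), where 6 passed for 4pm minus 4am (0.0466%).

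Tef, a PAR bZIP relative of Dbp, had signals of 2499, 2748 and 4614 at 4pm and 2748, 3239 and 2046 at 8pm, against 350, 713 and 1465 at 4am and 633, 602 and 811 at 8am. The sides did not overlap, and the highest morning array was 4am c, the one 4am array with a low Gapdh ratio. Tef rose 4.07-fold (2.03 ± 0.27, limma adjusted p = 0.00296), by 2.12 in the 4-o'clock and 1.94 in the 8-o'clock pair. Hlf, the remaining family member tested, had a difference of 0.62 ± 0.17 that did not pass (adjusted p = 0.308), with 0.24 for 4pm minus 4am and 1.01 for 8pm minus 8am. Its other probe set gave 1.33 ± 0.25, and the mean of both probe sets passed. Nfil3, which binds the same D-boxes as a repressor, lay under the expression filter.

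The upstream sequence of Dbp, Tef, Nr1d2, Ciart, Per3 and Arntl is shown because these are the members of the clock loop and the PAR bZIP family that passed in the comparison, and because E-boxes, D-boxes and ROR elements are the DNA sites through which the loop is known to act. Each is the 250 bases before a RefSeq transcription start (build GRCm38.p6), written 5′ to 3′ on the gene's strand, and capitals mark matches on either strand to the E-box CACGTG, the D-box TTATGNAA or the ROR element TNGGTCA.
Dbp: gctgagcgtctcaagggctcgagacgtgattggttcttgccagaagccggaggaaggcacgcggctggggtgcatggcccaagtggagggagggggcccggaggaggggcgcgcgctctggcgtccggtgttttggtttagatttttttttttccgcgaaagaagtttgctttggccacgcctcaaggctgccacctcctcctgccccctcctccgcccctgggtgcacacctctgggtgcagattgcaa
Tef: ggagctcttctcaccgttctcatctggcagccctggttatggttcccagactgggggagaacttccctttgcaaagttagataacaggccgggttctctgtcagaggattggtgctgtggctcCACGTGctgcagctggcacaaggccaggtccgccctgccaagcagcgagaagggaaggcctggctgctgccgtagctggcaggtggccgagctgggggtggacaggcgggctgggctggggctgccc
Nr1d2: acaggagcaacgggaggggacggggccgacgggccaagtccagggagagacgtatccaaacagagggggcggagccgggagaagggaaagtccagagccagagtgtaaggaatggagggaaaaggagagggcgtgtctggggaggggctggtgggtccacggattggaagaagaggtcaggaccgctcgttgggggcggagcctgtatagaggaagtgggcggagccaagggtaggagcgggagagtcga
Ciart: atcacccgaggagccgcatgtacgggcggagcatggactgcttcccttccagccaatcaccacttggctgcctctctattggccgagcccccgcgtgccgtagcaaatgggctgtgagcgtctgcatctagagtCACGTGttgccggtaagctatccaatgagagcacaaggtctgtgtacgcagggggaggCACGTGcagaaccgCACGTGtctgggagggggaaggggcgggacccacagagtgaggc
Per3: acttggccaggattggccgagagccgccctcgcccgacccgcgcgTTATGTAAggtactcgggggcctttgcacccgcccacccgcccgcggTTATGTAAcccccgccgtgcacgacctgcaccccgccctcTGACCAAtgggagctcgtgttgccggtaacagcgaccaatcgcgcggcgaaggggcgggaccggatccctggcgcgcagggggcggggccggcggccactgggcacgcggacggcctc
Arntl: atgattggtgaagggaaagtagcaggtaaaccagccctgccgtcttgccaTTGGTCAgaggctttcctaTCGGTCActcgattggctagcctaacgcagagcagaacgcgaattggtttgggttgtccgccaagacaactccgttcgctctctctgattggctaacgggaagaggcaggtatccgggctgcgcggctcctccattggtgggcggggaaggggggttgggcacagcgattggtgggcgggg
They lie at chr7:45704997-45705246 (plus strand, Dbp), chr15:81802423-81802672 (plus, the first of 2 Tef starts), chr14:18239107-18239356 (minus, Nr1d2), chr3:95882229-95882478 (minus, Ciart), chr4:151044666-151044915 (minus, Per3) and chr7:113207215-113207464 (plus, the first of 2 Arntl starts).

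Ciart held 3 E-boxes, whose first bases lay 116, 58 and 44 bases before the start, and Tef held 1, at 127 bases. Per3 held 2 D-boxes, at 205 and 158 bases, and a ROR element at 118 bases. Arntl held 2 ROR elements, at 200 and 181 bases, and Dbp and Nr1d2 none of the 3 motifs within this window. Slc36a1 and Tspan4 also matched the E-box, so that 4 of the 10 higher genes did, against 11.3% of the 10323 tested genes with a promoter in the table and 7.15% of all 32851 promoters. The D-box was found in 3.38% and the ROR element in 11% of all promoters, in windows that also take in 50 bases after the start. A match describes letters only, and no match says only that the letters are not in this window. Cldn8 has no entry in the table.

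Among the repressors of the loop, Nr1d2, Ciart and Per3 rose. Nr1d2, which encodes the nuclear receptor REV-ERB beta, had signals from 2525 through a median of 4457 to 5531 in the evening, against 870 through 1158 to 2282 in the morning. The highest morning array was 4am a, and it stayed below the lowest evening array. Nr1d2 rose 3.13-fold (1.65 ± 0.23, limma adjusted p = 0.00629), by 1.51 and 1.78 in the 4-o'clock and 8-o'clock pairs.

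Ciart, which encodes a repressor of CLOCK and ARNTL activity, had signals of 577, 608 and 672 at 4pm and 421, 386 and 330 at 8pm, against 238, 78.2 and 106 at 4am and 157, 47.7 and 142 at 8am. All 4pm arrays exceeded all 8pm arrays, and the sides did not overlap. The rise was 3.81-fold (1.93 ± 0.34, limma adjusted p = 0.0270), by 2.15 in the 4-o'clock and 1.71 in the 8-o'clock pair. It did not pass without 8am b, without any 1 array of 4pm or 8pm, or without 4am b (adjusted p up to 0.118).

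Per3, a period gene, had signals of 913, 1101 and 981 at 4pm and 554, 725 and 513 at 8pm, against 347, 496 and 568 at 4am and 270, 380 and 363 at 8am. The 4pm values stood apart, and 8pm a and c lay just under 4am c. The mean signal was 956 at 12pm and 964 at 12am, above the 597 of 8pm. Per3 rose 1.92-fold (0.94 ± 0.15, limma adjusted p = 0.0164), by 1.08 in the 4-o'clock and 0.79 in the 8-o'clock pair, and 3 further probe sets above the filter gave differences between 0.85 and 1.49. Without 8am a, 8pm a or 8pm b the adjusted p rose above the threshold, to at most 0.0920. With the 12 arrays only the limma adjusted p was 0.163.

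The other 10 tested genes of the repressor list did not pass. That list also takes in Csnk1d, Csnk1e and Btrc, which are not repressors themselves. Nr1d1, encoding REV-ERB alpha, came closest, at 1.53 ± 0.32 (limma adjusted p = 0.112). Its signal was 1269, 444 and 1028 at 4pm and 642, 642 and 635 at 8pm, against 47.6, 108 and 186 at 4am and 438, 348 and 1120 at 8am. The evening pair of times was alike, and the morning pair was not, with 4am far below 8am. The difference was 2.86 for 4pm minus 4am, which passed on its own (limma adjusted p = 0.0196), and 0.20 for 8pm minus 8am.

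Per1 was 1.80 ± 0.58 (adjusted p = 0.369), with morning signals between 14.8 and 862, at 2.59 in the 4-o'clock and 1.02 in the 8-o'clock pair, and was 0.48 without the 4 arrays of Gapdh ratio above 2. Per2 moved in opposite senses in the 2 pairs, at -0.44 for 4pm minus 4am and 1.28 for 8pm minus 8am, with an overall difference of 0.42 ± 0.20, and its 3 probe sets gave 0.42, 0.10 and 1.23. Cry1, a cryptochrome, was -1.03 ± 0.27 (adjusted p = 0.303), at -2.05 in the 4-o'clock pair and -0.01 in the 8-o'clock pair. Cry2 was 0.88 ± 0.32 and Cipc, a further inhibitor of CLOCK, 0.65 ± 0.18, with 8pm minus 8am at 0.33 for Cry2 and 0.75 for Cipc. Csnk1e, Btrc, Bhlhe40 and Csnk1d lay between -0.20 and 0.51, and 5 Csnk1d probe sets disagreed, from -0.20 to 0.87. Of the 13 genes tested in the repressor list, 7 were higher and 1 lower at an unadjusted p under 0.05. The shares of all genes were 7.79% and 3.24%. The median difference of the list was 0.65, against 0.08 over all genes.

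The activators stood opposite. Arntl had signals of 739, 902 and 651 at 4pm and 797, 634 and 683 at 8pm, against 2597, 1425 and 2263 at 4am and 1365, 1843 and 1318 at 8am. Its evening arrays all lay below its morning arrays, and 4am a and c were the highest. Arntl fell by 1.24 on the log2 scale (SE 0.19, limma adjusted p = 0.00880), and was 2.36-fold higher in the morning. The differences were -1.41 for 4pm minus 4am and -1.07 for 8pm minus 8am, and a second probe set gave -0.68 ± 0.28. Npas2 was -1.08 ± 0.23 and Clock -0.64 ± 0.18, and neither passed (limma adjusted p = 0.140 and 0.325). Npas2 did pass, at -1.22, when arrays were centred on their medians (adjusted p = 0.0402). Both carried the same sign in both pairs of times, and Rora, an activator of Arntl at the same elements as the REV-ERB receptors, was 0.16 ± 0.16.

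**Figure D2:**
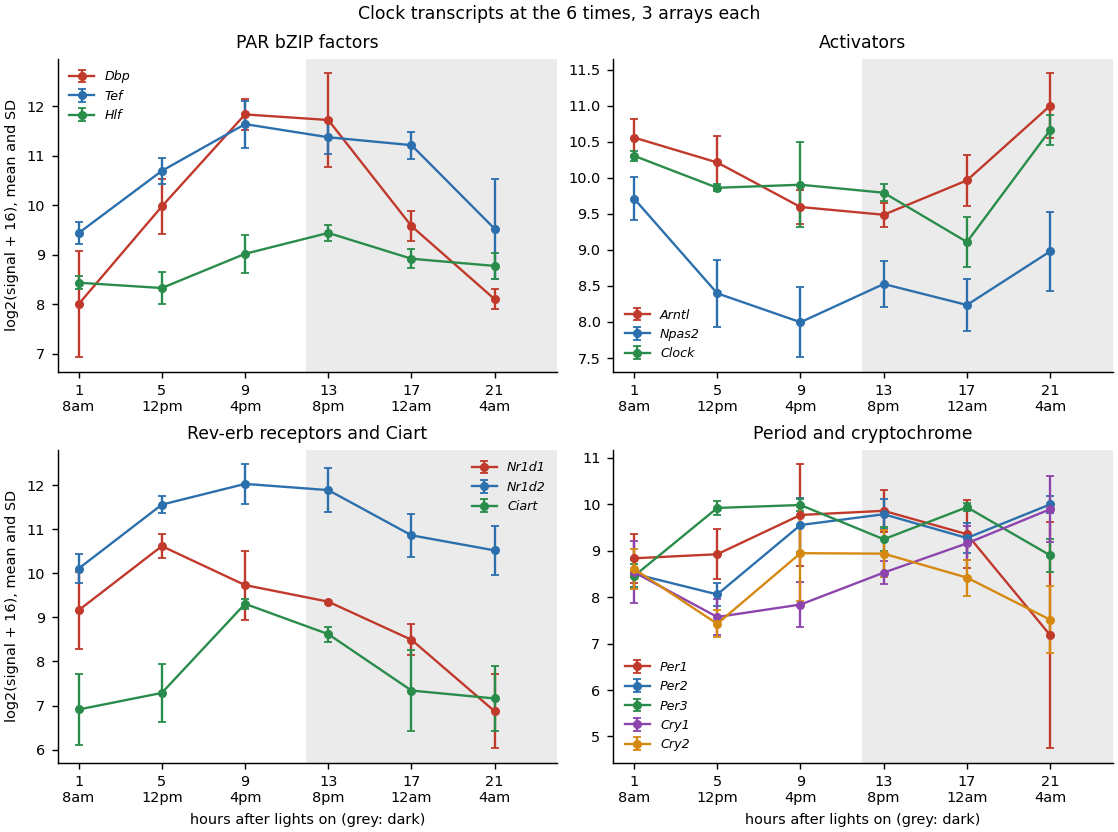
Mean and SD of log2(signal + 16) over 3 arrays are plotted for 14 clock transcripts at the 6 collection times, in hours after lights on, with the dark hours in grey. Dbp, Tef, Nr1d2 and Ciart are high at 9 and 13 h (4pm, 8pm) and low at 21 and 1 h (4am, 8am), and Arntl runs the other way, with signals of 634 to 902 in the evening, against 1318 to 2597 in the morning.

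Of the clock outputs, transcripts known to be rhythmic in other tissues, Tspan4 rose. Tspan4, a membrane tetraspanin, had signals from 304 through 451 to 765 in the evening, against 115 through 186 to 233 in the morning. The sides did not overlap, and the rise was 2.52-fold (1.33 ± 0.24, limma adjusted p = 0.0362), by 1.25 in the 4-o'clock and 1.41 in the 8-o'clock pair. This was the weakest of the 12 calls: it was lost on leaving out 14 of the 18 arrays in turn, with adjusted p up to 0.158, and the 4 whose loss kept it were 4pm b, 8pm c, 12am a and 4am c. Usp2, a deubiquitinase, was 0.82 ± 0.20 (adjusted p = 0.301) and Lonrf3, a RING finger protein, -0.83 ± 0.21 (adjusted p = 0.303), with 8pm minus 8am at 1.19 for Usp2 and -0.33 for Lonrf3. Of 20 outputs tested, 3 were higher and 2 lower at an unadjusted p under 0.05, with a median of 0.18. Over all genes 7.79% were higher and 3.24% lower at that p, with a median of 0.08.

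The clone 0610005C13Rik ranked next to Dbp by p. Its signals were 1390, 1423 and 1950 at 4pm and 720, 1117 and 724 at 8pm, against 445, 322 and 455 at 4am and 372, 396 and 321 at 8am. The 4pm arrays were the highest and the sides did not overlap. It rose 2.92-fold (1.55 ± 0.19, limma adjusted p = 0.00169), by 1.92 in the 4-o'clock and 1.17 in the 8-o'clock pair. Its gene lies at chr7:45567795-45575176 in GRCm38.p6, 129.9 kb from Dbp at chr7:45705100-45710203.

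Csrnp1, a nuclear protein induced early after stimulation, rose 2.31-fold (1.21 ± 0.18, limma adjusted p = 0.00880), but not alike in the 2 pairs. Its signals were 327, 322 and 262 at 4pm and 379, 426 and 295 at 8pm, against 68.1, 58.0 and 55.2 at 4am and 321, 306 and 226 at 8am. The 3 arrays of 4am stood alone at the bottom, 4am c with its low Gapdh ratio included. The difference was 2.06 for 4pm minus 4am and 0.35 for 8pm minus 8am. Of 25 immediate early genes, 4 were higher and 0 lower at an unadjusted p under 0.05, against 7.79% and 3.24% of all genes. Ier2 was 1.04 ± 0.30 and Ier3 0.59 ± 0.16, both short of the threshold (adjusted p = 0.325). Ier2 was 1.87 for 4pm minus 4am and 0.20 for 8pm minus 8am, Ier3 was 0.71 and 0.48, and the median of the list, 0.10, was near that of all genes.

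Slc36a1, a proton-coupled carrier of small neutral amino acids, had signals from 2750 through 3575 to 5014 in the evening, against 1052 through 1546 to 2638 in the morning. The highest morning array, 8am c, came just under the lowest evening array, 8pm c. The rise was 2.23-fold (1.16 ± 0.18, limma adjusted p = 0.00880), by 1.48 and 0.84 in the 4-o'clock and 8-o'clock pairs. It did not pass with the 12 arrays only (limma adjusted p = 0.127). Among 24 carriers of amino acids, sugars and peptides, 4 were higher and 2 lower at an unadjusted p under 0.05. The shares of all genes were 7.79% and 3.24%, and the median of the carriers was 0.15. Slc1a5, a glutamine carrier, was 0.78 ± 0.27 (adjusted p = 0.399), and Slc16a1, the monocarboxylate carrier that takes up butyrate, -0.28 ± 0.11 (adjusted p = 0.414), with 8pm minus 8am at 0.27 for Slc1a5 and -0.10 for Slc16a1.

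Ephx1, microsomal epoxide hydrolase, had signals from 938 through 988 to 1195 in the evening, against 414 through 567 to 743 in the morning. The evening arrays were closely grouped, and 4am was lower than 8am. Ephx1 rose 1.83-fold (0.88 ± 0.14, limma adjusted p = 0.0106), by 1.03 and 0.72 in the 2 pairs. It did not pass without 8am b or without 8pm a (adjusted p up to 0.0582), or with the 12 arrays only (limma adjusted p = 0.115). Of 38 genes of xenobiotic metabolism, 4 were higher and 3 lower at an unadjusted p under 0.05, with a median of 0.07. Among all genes 7.79% were higher and 3.24% lower at that p, with a median of 0.08. Sult1b1, a sulfotransferase, was -0.73 ± 0.19 (adjusted p = 0.303), at -1.14 in the 4-o'clock and -0.32 in the 8-o'clock pair, and Gstt2, a glutathione transferase, 1.17 ± 0.37 (adjusted p = 0.368), at 2.23 in the 4-o'clock and 0.11 in the 8-o'clock pair.

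Cldn8, a claudin that limits paracellular passage of sodium in distal colon, fell. Its signals were 3343, 4402 and 2265 at 4pm and 2665, 2366 and 4619 at 8pm, against 9255, 12408 and 6349 at 4am and 5786, 8015 and 5683 at 8am. The highest evening array, 8pm c, lay below the lowest morning array, 8am c. Cldn8 fell by 1.27 on the log2 scale (SE 0.22, limma adjusted p = 0.0270), and was 2.41-fold higher in the morning. The differences were -1.48 and -1.06 in the 2 pairs. The call was lost on leaving out any 1 array of 8am, 4pm a, 4pm c, 8pm a, 8pm b or 4am b (adjusted p up to 0.118). Of 16 tight junction genes 3 were higher and 2 lower at an unadjusted p under 0.05, with a median of -0.05. The shares of all genes at that p were 7.79% and 3.24%. Cldn23 was -0.58 ± 0.22 and Cgn, the cytoplasmic linker cingulin, 0.64 ± 0.23, neither past the threshold (adjusted p = 0.420 and 0.402), with 8pm minus 8am at -0.27 for Cldn23 and 0.08 for Cgn.

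**Figure D3:**
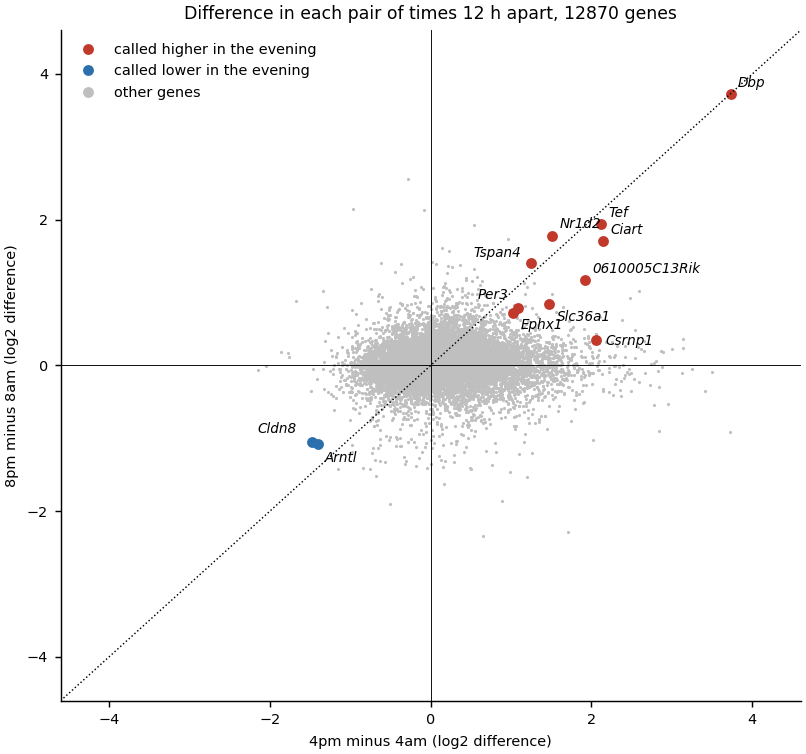
Each point is 1 of 12870 genes, with the log2 difference 4pm minus 4am on the horizontal axis and 8pm minus 8am on the vertical axis; red and blue points are the genes called higher and lower in the evening, and the dotted line marks equal differences. Dbp lies at 3.73 and 3.72, Arntl and Cldn8 lie in the lower left, and Csrnp1 sits at 2.06 and 0.35, near the horizontal axis.

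Whether a difference depended on the pair of times was tested as (8pm minus 8am) minus (4pm minus 4am). No gene passed (0 of 12870, 0%; limma), and 991 had an unadjusted p under 0.05 (7.7%). The replicate block gave 1 gene, array weights 2618, and the fit without 4am c, which leaves only the degraded 4am a and 4am b at that time, 1916. The 5 genes of lowest p included 3 of the machinery of cell division: Plk1, a kinase that drives the spindle, Bub1b, a checkpoint kinase, and Psrc1, a spindle protein. Plk1 was 1.20 for 4pm minus 4am and -1.53 for 8pm minus 8am, with signals of 290, 234 and 182 at 4pm and 288, 236 and 229 at 8pm, against 84.1, 74.7 and 121 at 4am and 1002, 436 and 972 at 8am. The evening times were alike, while 4am lay below and 8am above them. The other 2 were Csrnp1 and Scrt2, a zinc finger factor. Scrt2 was 2.02 for 4pm minus 4am and -1.02 for 8pm minus 8am. Its mean signals were 338 at 4pm and 22.2 at 8pm, against 70.3 at 4am and 66.5 at 8am. The 8pm signals lay near the added constant of 16.

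No mitosis gene passed in the evening against morning comparison, and nearly all of their differences were negative. Of 33 tested, 21 were lower and 0 higher at an unadjusted p under 0.05, against 3.24% and 7.79% of all genes, and 32 of 33 differences were negative, with a median of -0.54. Bub1, a checkpoint kinase, was -1.21 ± 0.25 (limma adjusted p = 0.112), Mad2l1, its partner in the checkpoint, -1.10 ± 0.24 (adjusted p = 0.149) and Mki67, the Ki-67 antigen of dividing cells, -0.84 ± 0.21 (adjusted p = 0.303). Bub1 signals were 215, 237 and 176 at 4pm and 42.2, 77.4 and 105 at 8pm, against 461, 238 and 251 at 4am and 341, 216 and 402 at 8am. The 8pm minus 8am differences were -1.91 for Bub1, -1.52 for Mad2l1 and -1.35 for Mki67. The lowest Bub1 values were those of 8pm, and the sides met where 4pm b exceeded 8am b.

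Outside the lists of clock and mitosis genes, the next lower genes in order of p, with the same sign in both pairs, were Shcbp1, Tppp, Zfand5, Ncaph and Ccdc34, and none passed. Shcbp1 was -1.0 ± 0.22 and Tppp, a tubulin-binding protein, -0.73 ± 0.16 (limma adjusted p = 0.140 for both). Their 6 evening arrays all lay below their 6 morning arrays, at 150 to 352 against 404 to 736 for Shcbp1, and 841 to 1437 against 1583 to 2154 for Tppp. Zfand5 was -0.65 ± 0.15, Ncaph, a condensin subunit, -0.95 ± 0.21, and Ccdc34 -0.86 ± 0.20 (adjusted p = 0.175, 0.175 and 0.209).

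The mitosis list differed between the 2 pairs. Its median was -1.11 for 8pm minus 8am, where all 33 members were negative and 30 were lower at an unadjusted p under 0.05 (1.17% of all genes were), while 0 were higher (1.71% of all genes). It was 0.03 for 4pm minus 4am, where 15 members were negative, 3 were higher and 1 lower at that p (13.8% and 5.93% of all genes). In the test of the pair, 22 of the 33 had an unadjusted p under 0.05, against 7.7% of all genes. The mean log2 value of the list was 9.60 ± 0.37 at 8am, 9.0 ± 0.29 at 12pm, 9.02 ± 0.17 at 4pm, 8.49 ± 0.10 at 8pm, 8.74 ± 0.04 at 12am and 8.97 ± 0.20 at 4am (SD, n = 3 each). The highest mean was that of 8am and the lowest that of 8pm. Of 30 DNA replication genes, 3 were lower and 0 higher at an unadjusted p under 0.05, against 3.24% and 7.79% of all genes. The median of these 30 was -0.20. Pola1, a polymerase subunit, was -0.65 ± 0.24 and Pcna, the sliding clamp, -0.59 ± 0.24 (adjusted p = 0.406 and 0.427), with 8pm minus 8am at -0.26 for Pola1 and -0.05 for Pcna. Without the 3 arrays of highest Gapdh ratio none of the list was lower at an unadjusted p under 0.05 and its median was -0.11.

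Genes of sodium absorption had a median of 0.34, with 6 of 18 higher and 1 lower at an unadjusted p under 0.05. None passed the threshold, and of all genes 7.79% were higher and 3.24% lower at that p. Wnk4, a kinase that regulates salt transport, was 1.02 ± 0.21 (limma adjusted p = 0.128). It passed for 4pm minus 4am, at 1.79 (adjusted p = 0.0361), and was 0.25 for 8pm minus 8am. Prss8, a protease that activates the epithelial sodium channel, was 0.79 ± 0.25, Scnn1b, a subunit of that channel, 0.46 ± 0.18, and Fxyd4, a regulator of the sodium pump, -0.60 ± 0.18 (adjusted p between 0.345 and 0.420), with 8pm minus 8am at 0.36, 0.43 and -0.59. Without the 3 arrays of highest Gapdh ratio the list median was 0.02, with 3 of 18 members higher and 1 lower at that p, against 4.59% and 3.4% of all genes in that fit. Among 9 potassium transport genes, 3 were higher and 1 lower, led by the channel Kcnq1 at 0.68 ± 0.18, with 0.68 in each pair, and the pump Atp12a at 0.40 ± 0.13 (adjusted p = 0.303 and 0.378), which was -0.01 in the 4-o'clock and 0.81 in the 8-o'clock pair.

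Glucocorticoid targets had 5 of 24 members higher and 1 lower at an unadjusted p under 0.05, against 7.79% and 3.24% of all genes. Their list had a median of 0.20 and shares Per1 with the repressors. Zbtb16 was 0.62 ± 0.17 and Fkbp5, a chaperone of the receptor, 0.61 ± 0.18 (adjusted p = 0.325 and 0.344), with 8pm minus 8am at 0.60 for Zbtb16 and 0.16 for Fkbp5. The list median was 0.07 without the 3 arrays of highest Gapdh ratio, 0.06 without 4 and 0.07 with array medians centred. The median over all genes was 0.03, 0.01 and -0.05 in these fits, against 0.08 in the reported one. Centring shifts the difference of every gene by the same amount, so it leaves the distance between a list and all genes unchanged. Cholesterol and fatty acid synthesis had 5 of 26 higher and 1 lower, led by Mvd, an enzyme of the mevalonate pathway, at 0.76 ± 0.21 (adjusted p = 0.325), with 0.70 for 8pm minus 8am. That list had a median of 0.14. It was 0.05 without the 3 arrays of highest Gapdh ratio, 0.13 without 4 and 0.01 with array medians centred. Interferon response genes had 4 of 21 higher and 0 lower, with a median of 0.31. That median was 0.19 without those 3 arrays, 0.30 without 4 and 0.18 with array medians centred. With quantile normalization the glucocorticoid, cholesterol and interferon lists had medians of 0.24, 0.19 and 0.25, against 0.03 over all genes. Psmb8, an immunoproteasome subunit, was 0.92 ± 0.31 (adjusted p = 0.387), at 1.88 in the 4-o'clock and -0.05 in the 8-o'clock pair. The other 16 lists with no called gene, outside those of cell types, held 339 members, of which 9.44% were higher and 3.83% lower at an unadjusted p under 0.05. Their medians ran from -0.12 for cytosolic ribosome to 0.32 for aquaporins.

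Lists of cell types gave no called gene among 15 lists and 210 members. Of these members 5.24% were higher and 2.38% lower at an unadjusted p under 0.05, against 7.79% and 3.24% of all genes. All 15 endothelial markers were positive (60.6% of all genes were), 6 of them at an unadjusted p under 0.05. The median of these markers was 0.50 (0.90 for 4pm minus 4am, 0.12 for 8pm minus 8am). Esam, an adhesion molecule of endothelial junctions, led at 0.55 ± 0.17 (adjusted p = 0.344), at 0.90 in the 4-o'clock and 0.20 in the 8-o'clock pair. The summed endothelial signal was 4506 to 7298 in the evening and 3312 to 4745 in the morning, and without the 3 arrays of highest Gapdh ratio the list median was 0.37, with 14 of 15 positive (55.2% of all genes were) and 2 higher at an unadjusted p under 0.05, against 4.59% of all genes. Without 4 arrays 1 of the 15 was higher at that p. Exocrine pancreas markers had a median of 1.47. Their mean log2 value was 11.4 at 4pm, 7.95 at 8pm, 9.34 at 4am and 7.78 at 8am. It was highest at 12am, at 12.1, outside the comparison. The summed signal of the list was 47093 to 166783 in the evening and 45382 to 65468 in the morning. The sum of 45382, in 8am a, came with a list mean of 7.57 on the log2 scale, so bright members dominate the sum. Of the 14 tested members of the list 0 were higher and 1 lower at an unadjusted p under 0.05. The list median was 2.57 for 4pm minus 4am and 0.12 for 8pm minus 8am. Without the 4 arrays of Gapdh ratio above 2, which leaves 1 array each at 4pm and 4am, it was 2.28. The arrays left there, 4pm a and 4am c, had list means of 11.9 and 8.39 on the log2 scale. With the 12 arrays only or with the Gapdh ratio as a covariate, 2 members were higher at that p (5.37% and 9.34% of all genes were). Cela3b, an elastase, ranged from 21.9 to 13346 in the evening and from 13.4 to 2296 in the morning. The part of either cell type in the results was not tested.

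**Figure D4:**
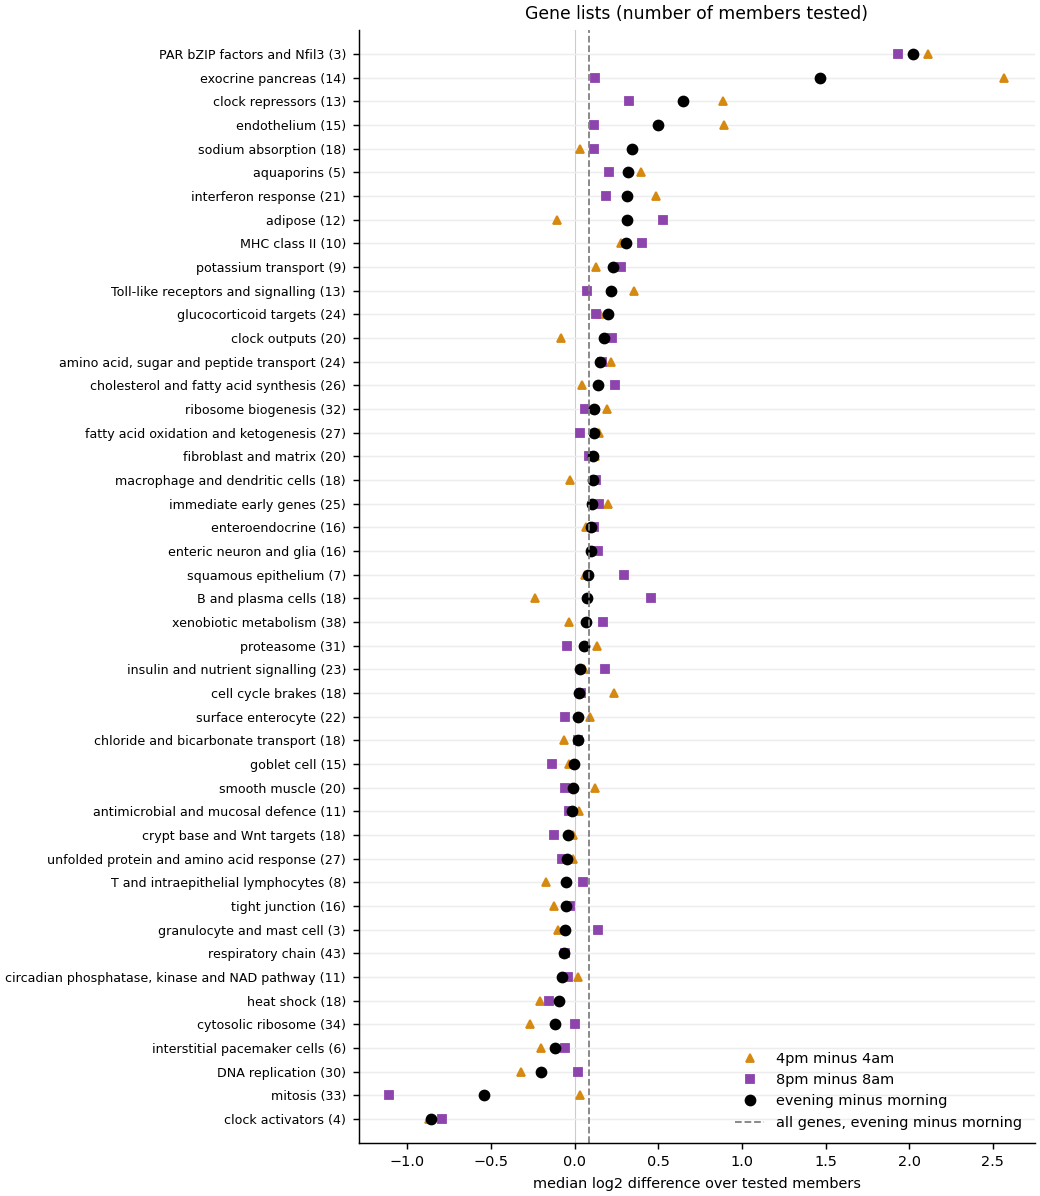
For each of 46 gene lists, with the number of tested members in brackets, the plot gives the median log2 difference of its members for evening minus morning (black circles), 4pm minus 4am (orange triangles) and 8pm minus 8am (purple squares); the dashed line is the median over all genes, 0.08. PAR bZIP factors, at 2.03, and clock activators, at -0.86, have all 3 symbols close together, while mitosis and endothelium have them far apart.

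Leaving out the 4 arrays of Gapdh ratio above 2 left 3 calls, Dbp (3.60, adjusted p = 0.0218), Tef (1.35, adjusted p = 0.0279) and Nr1d2 (1.86, adjusted p = 0.0218), in a fit where 4pm and 4am had 1 array each, assumed to vary like the other groups. The other 9 genes kept their sign in that fit, at -1.33 for Arntl, -0.99 for Cldn8 and between 0.72 and 1.99 for the 7 higher genes. With the Gapdh ratio as a covariate 20 genes passed: all 12, the clock repressors Nr1d1 (1.40, adjusted p = 0.0116) and Cipc (0.71, adjusted p = 0.0465), the output Usp2 (0.89, adjusted p = 0.0203), and Cbr3, Dgat2, Id1, Lefty1 and 2210407C18Rik.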

How the data were processed

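RNA of mouse distal colon had been hybridized to Affymetrix MOE430 2.0 arrays, 3 per collection time. The deposited values are intensity signals on a linear scale, made by the authors with GCOS, per the submitters' processing notes, with no version given. With 2% of values trimmed at either end, the mean of each array was 500, so the deposited intensity carries 1 scaling factor per array. No detection calls were used here, and the number of arrays limits the precision.

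Of 45101 probe sets, 64 controls were set apart. Of the rest, 34945 carried 1 gene symbol, 932 several and 9160 none in the platform annotation, and only the first kind was used. Values were log2(signal + 16), kept when the mean over all arrays reached the 40th percentile (7.10). The brightest probe set stood for a gene, giving 12870 genes, with symbols and positions from RefSeq (GRCm38.p6). Means of the 6 times were fitted over all 18 arrays with limma 3.58.1 in R 4.3.3 (12 residual degrees of freedom, trended empirical Bayes), and the contrast was the mean of 4pm and 8pm minus the mean of 4am and 8am. P-values are two-sided and adjusted by Benjamini-Hochberg over all genes, with a threshold of 0.05. Tests ran on simulated data first.

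Genes named were all tested clock activators, repressors and PAR bZIP factors, up to 20 called genes per direction (filled to 10 with the next of lowest p and like sign in both pairs), the 5 lowest p of the pair test and 2 to 4 members of lowest p per list described. Members, lists and tests were chosen with earlier results of these data known. Array letters showed no clear pairing of the samples: deviations of same-letter arrays correlated between -0.49 and 0.30. Alternatives changed the constant, normalization, filter, probe set rule, moderation, model and arrays used.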

Additional observations from a re-analysis of the deposited data

Results flagged for a closer look

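Btrc, the F-box protein that marks period proteins for breakdown, had 1 evening array far from the rest. Its log2 value in 4pm a was 9.55, against 8.35 to 8.78 in the other 5 evening arrays, and the gap took up 0.639 of the range of the 6. This was 1 of 52 groups of 6 arrays looked at over 26 genes, where chance marks about 1 in 20.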

How the results depend on the processing

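The reported fit gave 10 genes higher and 2 lower, and no called gene changed sign under any alternative. Adding 1 or 64 in place of 16, dropping the trend and robust moderation gave the same 12 genes. Array medians centred gave 3 higher, and the remaining counts of higher genes outside 1.5 times the reported one were 6 with the 12 arrays only, 2 with 2 groups of 6 and no time term, 5 with the pair of times as a block, 1837 with array quality weights, 17 with the Gapdh ratio as a covariate, 6 without the 3 arrays of highest Gapdh ratio, 3 without 4, 6 for 4pm against 4am alone and 1 for 8pm against 8am alone. Lower genes numbered 1 with every probe set tested, the 12 arrays only, the pair of times as a block, the replicate block and the 3 arrays left out. They numbered 0 with 2 groups and no time term, 4 arrays left out, 4pm against 4am alone and 8pm against 8am alone, and 935 with array weights. The weights ran from 0.119 for 4am c to 6.03 for 4pm a. Leaving out each array in turn gave 6 to 1495 higher, 1 to 657 lower and 0 to 1916 genes in the pair test, the highest of each without 4am c, when only the degraded 4am a and 4am b are left at that time, and the causes were not tested.

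The replicate block on array letters gave 8 higher and 1 lower, without Ciart, Cldn8 and Tspan4, and 1 gene in the pair test, where array weights gave 2618. Of 15 comparisons per letter, 1, 3 and 2 had r over 0.1 for a, b and c. Of 18 arrays, 4 correlated best with their own letter. No pairing by letter was seen, though 3 arrays per time, some degraded, cannot exclude one. Dbp and Tef passed in the 18 other settings that set evening against morning and in all 18 leave-one-out fits. With 1 pair of times alone, Dbp passed in each pair and Tef in neither. Without any filter Nfil3 was called and Tspan4 was not. The called genes lost with the 12 arrays only were Slc36a1, Ephx1, Per3, Tspan4 and Cldn8 (limma adjusted p between 0.115 and 0.163). With the mean of probe sets Hlf and Cpm joined the 12. Without the 3 arrays of highest Gapdh ratio 5 of the 12 were called: Dbp, Tef, Nr1d2, 0610005C13Rik and Arntl. Cipc and Uty were called there besides. For other named genes 6545 of the values stayed the same, 235 were past the threshold only in the alternative and 187 moved.

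Degraded RNA in 4pm b, 4am a and 4am b, 3 arrays per time and unknown sources limit the calls. No background level per probe set was used, so low signals carry unknown noise.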
